A study of Mus musculus with 12 samples.

Results

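Whole-brain gene expression was examined for a graded relation to the number of intact Slc6a20a alleles in 12 mice. WT mice carry 2 intact alleles, Slc6a20a+/- mice (HT) carry 1 and Slc6a20a-/- mice (HM) carry 0, with 4 mice of each genotype. All were males of the C57BL/6N strain at about postnatal day 120 and received no treatment, the mutant allele lacks exon 3 of the gene in every cell, and the mice came from crosses between HT parents. Poly-A RNA of each brain was sequenced, and the deposited table holds DESeq2-normalized counts for 19775 genes in each mouse. Genes were taken in if their mean over the 12 mice was at least 10 normalized counts, which 18006 of the 19775 genes reached. The gene just inside this limit, A930003A15Rik, had a mean of 10.01, and the gene just outside it, Ltb4r2, had a mean of 9.9996. For each gene a straight line was laid through log2(normalized count + 1) against allele number. It was then asked whether the line had a slope and whether the HT mice lay off it.

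SLC6A20A, also called SIT1, is a sodium- and chloride-dependent transporter of the plasma membrane that carries proline and related imino acids and also glycine. In the brain, proline and glycine act close to glutamatergic transmission, because glycine is a co-agonist of the NMDA receptor and opens inhibitory glycine receptors. A gene expressed from both chromosomes is often reduced by about the share of its lost copies, and expression that follows copy number in this way is called dosage-dependent. A transcript elsewhere in the genome can follow the number of intact alleles step by step, respond to the loss of the last allele alone, or reach its full difference with the first.

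The deleted exon is shown because every value below is set against the number of alleles that still hold it. In GENCODE M21 on GRCm38, exon 3 of transcript Slc6a20a-201 lies on the minus strand at chr9:123662949-123663040 and is 92 bases long. The following line gives it 5′ to 3′ in the transcript, with exon 3 in capitals between the last 30 bases of exon 2 and the first 30 bases of exon 4 in lower case.

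Slc6a20a exon 3: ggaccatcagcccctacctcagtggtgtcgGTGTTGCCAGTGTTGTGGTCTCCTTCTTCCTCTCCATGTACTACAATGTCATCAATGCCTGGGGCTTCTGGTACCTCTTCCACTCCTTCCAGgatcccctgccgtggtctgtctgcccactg

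Because reads were counted over the whole gene, reads from exons outside the deleted one still count as Slc6a20a in mice that carry the deletion.

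Libraries were comparable in size after normalization, with 33284951 to 33748623 normalized counts per mouse. The normalized counts do not hold whole reads, so the number of reads behind a level of 10 is not known. WT replicate 1 stood apart from the other WT mice in gene groups described below. The numbers in the column names start with 271, 274, 276 or 278, and genotypes are spread unevenly over these starts. Mice of all 3 genotypes occur only among those starting with 276. Markers of neurons (12 of 12 listed genes tested), astrocytes (12 of 12) and oligodendrocytes (12 of 12) were expressed in all mice. In such bulk tissue, fewer cells of a type and less RNA per cell cannot be told apart.

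The log2 change per allele lost is the slope of the line, positive where a transcript was higher with fewer intact alleles. The departure is the HT mean minus the midpoint of the WT and HM means on the same log2 scale, positive where HT mice lay above the line. Both came from 1 limma fit of all 12 mice, with Benjamini-Hochberg (BH) adjustment of each p over the 18006 genes. The slope is set by the WT and HM means, and HT mice enter it only through the shared estimate of the spread.

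An adjusted p under 0.05 for the slope was reached by 3 genes, 0.0167% of those tested. They were Slc6a20a itself, Gm47173, a transcript annotated inside Slc6a20a, and Gtf3c4, a subunit of a transcription factor of RNA polymerase III. Slc6a20a and Gm47173 fell with each allele lost, and Gtf3c4 rose. At an unadjusted p under 0.05, 772 genes (4.29%) were higher and 605 genes (3.36%) were lower with each allele lost. For the departure, Slc6a20a was the 1 gene (0.00555%) with an adjusted p under 0.05, while 309 genes (1.72%) lay above the line and 419 (2.33%) below it at an unadjusted p under 0.05. With any 1 of WT replicates 1 to 4, HT replicates 1 and 2 or HM replicates 1, 2 and 4 left out, Slc6a20a was the 1 gene with a called slope. The departure count became 0 without WT replicate 1, 2 or 3, HT replicate 1 or 2, or HM replicate 2 or 4, and 3 without HT replicate 4, and without HT replicate 3 Gm49450 was called in place of Slc6a20a. Without HM replicate 3 the genes with a called slope were Slc6a20a, Gm47173 and mt-Co3.

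HT mice had the middle mean in 6804 of the 18006 genes (37.8%), which are called graded here. HM mice had the middle mean in 6386 genes (35.5%) and WT mice in 4816 (26.7%). The HT mean was on the HM side of the midpoint in 10205 genes (56.7%). Among the 1377 genes with an unadjusted slope p under 0.05, the HT mean was in the middle in 1087 (78.9%), but such genes were picked for a difference between the outer genotypes, which favours this order. On a scale where 0 is the WT mean and 1 the HM mean, the HT mean of these 1377 genes had a median place of 0.68, with quartiles of 0.43 and 0.91. The HT mean was on the HM side in 955 of them (69.4%). Over all 18006 genes the median place was also on the HM side, at 0.66 (quartiles -0.074 and 1.35). A place nearer to HM was thus not particular to these genes. The place was 0.72 in the median of the 772 higher genes and 0.63 in that of the 605 lower genes. An unadjusted departure p under 0.05 was found in 111 of the 1377 (8.06%), against 4.04% of all genes tested. The same 4 WT mice serve as the reference for HT and for HM mice in every such place.

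Slc6a20a, the targeted gene (ENSMUSG00000036814, chr9:123634770-123678885, minus strand), had 704, 584, 678 and 750.5 normalized counts in the 4 WT mice, 332, 366, 372 and 310.3 in HT mice and 69.0, 55.6, 76.5 and 57.1 in HM mice. The 3 genotypes did not overlap, and each mouse of a genotype with fewer alleles lay below every mouse with more. The log2 change per allele lost was -1.69 (SE 0.056, limma, BH-adjusted p = 3.53e-11). An exact two-sided permutation test of this slope over the 34650 assignments of the mice gave p = 5.77e-05, the smallest it can give.

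On the log2 scale the second allele cost more than the first. The mean fell by 0.97 from WT to HT and by 2.41 from HT to HM, so the HT mice lay 0.72 above the line (SE 0.10, limma, BH-adjusted p = 0.0298). On the scale of normalized counts the steps were nearly alike. HT mice had lost 334.3 normalized counts against WT, and HM mice a further 280.4. The HT mean of 345.0 was 26.9 below the midpoint of 371.9 between WT and HM, whereas the log2 line passed through 208.8 at 1 allele. With the line drawn in normalized counts, the departure was -0.074 of the gene's mean (SE 0.066, limma, BH-adjusted p = 0.999), the opposite direction and far from the threshold. HT mice lay between the other genotypes on both scales, and the departure was called on the log2 scale alone. That call was lost without WT replicate 1 (adjusted p = 0.0865), 2 (0.0708) or 3 (0.104), HT replicate 1 (0.162), 2 (0.302) or 3 (0.159), or HM replicate 2 (0.0503) or 4 (0.063), with departures of 0.68 to 0.73. It was also lost with a block for the start of the animal number (adjusted p = 0.235), a variance prior without a mean trend (0.327) and length and GC correction (0.0521). Among mice whose numbers start with 276, the 1 WT mouse had 584 normalized counts, the 2 HT mice a mean of 348.9 and the 1 HM mouse 57.1.

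Other transcripts are annotated within the Slc6a20a gene. Gm47173 (chr9:123643166-123645489, plus strand) and Gm47171 (chr9:123644194-123646987, minus strand) both lie in the intron between exons 7 and 8 of Slc6a20a-201 and touch none of its exons. Both are of the class TEC, transcripts that still await experimental proof. Gm47173 had 54.2, 63.6, 76.4 and 73.5 normalized counts in WT, 46.6, 49.7, 41.4 and 34.7 in HT and 17.2, 11.5, 34.4 and 15.4 in HM mice, and no genotype overlapped another. It fell by 0.91 per allele lost on the log2 scale (SE 0.13, limma, BH-adjusted p = 0.0334), with HT mice 0.29 above the line (SE 0.23, unadjusted p = 0.229). This call was lost when WT replicate 1, 2, 3 or 4, HT replicate 1 or 2, or HM replicate 1, 2 or 4 was left out, with adjusted p from 0.0532 to 0.186 and a slope of -0.96 to -0.81. It was also lost with the block for the start of the animal number (slope -0.75, adjusted p = 0.311) and with a variance prior without a mean trend (0.317). Gm47171 had means of 68.9 ± 18.4, 47.8 ± 12.2 and 30.9 ± 12.6 normalized counts (SD, n = 4) in WT, HT and HM mice. Its slope was -0.59 (SE 0.14, BH-adjusted p = 0.384), and its genotypes overlapped.

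Gm17120, an antisense transcript over the last exon, had 17.9 ± 9.83, 8.97 ± 3.42 and 7.70 ± 0.897 normalized counts for 2, 1 and 0 alleles, with most of its difference at the first allele (slope -0.49, SE 0.20, unadjusted p = 0.025). Ccr9, a chemokine receptor gene whose annotation overlaps the first exon from the other strand, had a slope of 0.10 (SE 0.15, unadjusted p = 0.501), which was -0.056 without WT replicate 1. The library kit did not keep strand, so reads from Slc6a20a and from transcripts over it cannot be told apart. Slc6a20b, the neighbouring paralog, had 31.2, 32.7, 25.5 and 27.1 normalized counts in WT, 30.2, 33.4, 19.4 and 25.3 in HT and 11.1, 15.7, 17.3 and 23.8 in HM mice. HM mice all lay below WT mice, while HT mice spanned the WT range, and the place of HT was 0.15. Its slope was -0.39 (SE 0.12, BH-adjusted p = 0.547), and the reads it could share with Slc6a20a make it uncertain.

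**Figure D1:**
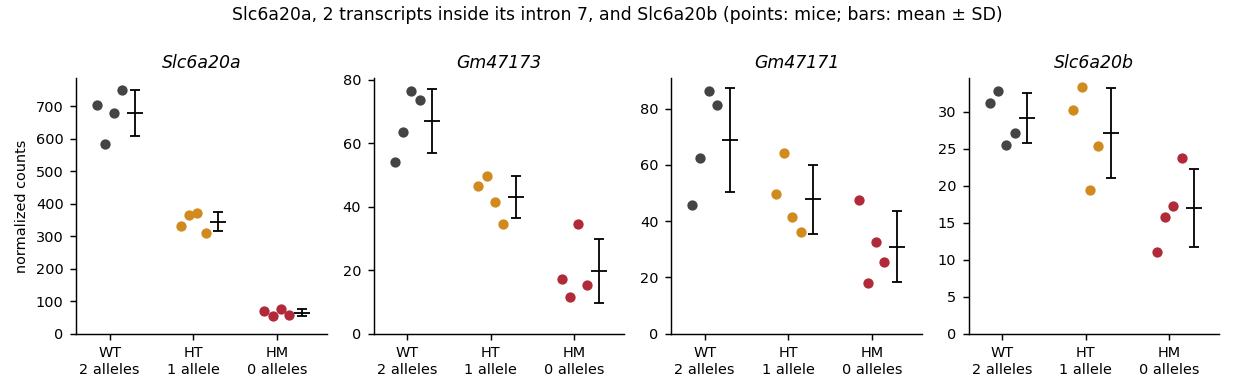
Normalized counts (vertical axis, starting at 0) of Slc6a20a, Gm47173, Gm47171 and Slc6a20b in each of 12 mice (points), by genotype and number of intact alleles, with the mean and SD of 4 mice beside them. Slc6a20a and Gm47173 step down without overlap, from means of 679.3 and 66.9 in WT mice to 64.5 and 19.6 in HM mice.

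**Figure D2:**
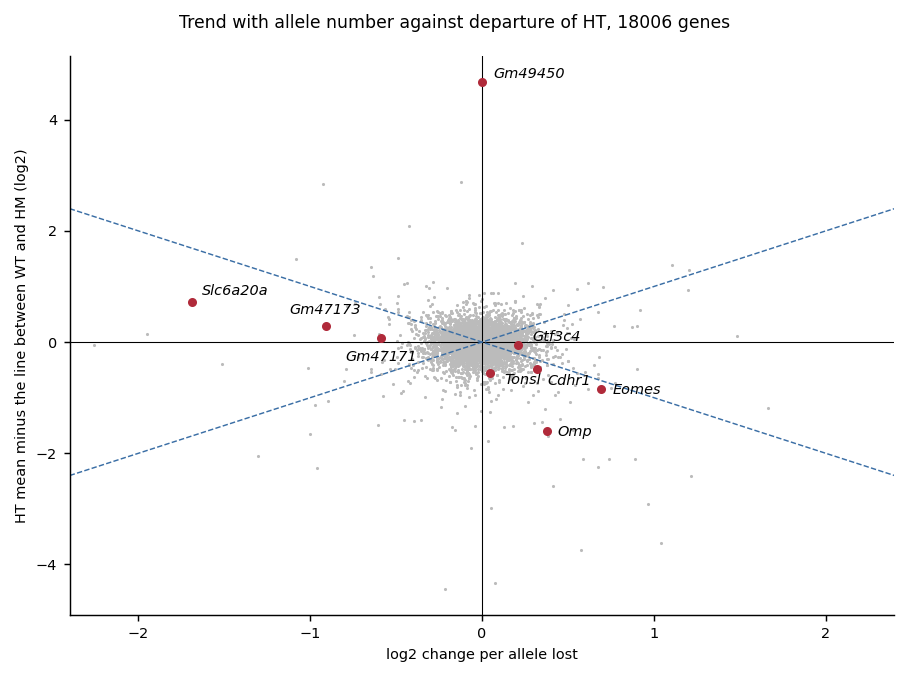
Log2 change per allele lost (horizontal axis) against the departure of HT mice from the line (vertical axis, log2) for the 18006 genes tested, each a grey point, with 9 genes marked in red. Between the dashed lines to the left and right of the centre the HT mean lies between the WT and HM means. Slc6a20a lies far to the left at -1.69, while Eomes, Cdhr1 and Omp lie below the line and Gm49450 far above it.

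Gtf3c4 was the 1 gene outside the Slc6a20a locus with a called slope. It encodes a subunit of TFIIIC, the factor that recruits RNA polymerase III to tRNA genes. It had 1364, 1368, 1411 and 1438 normalized counts in WT, 1465, 1521, 1447 and 1845 in HT and 1885, 1780.2, 1881 and 1901 in HM mice. HM mice all exceeded WT mice, HT mice lay above WT mice too, and HT replicate 4 alone reached the HM range. Gtf3c4 rose by 0.21 per allele lost on the log2 scale (SE 0.032, limma, BH-adjusted p = 0.0455) with a place of 0.39 for HT and a departure of -0.045 (unadjusted p = 0.429). Among mice whose numbers start with 276, the 1 WT mouse had 1368 normalized counts, the 2 HT mice a mean of 1493 and the 1 HM mouse 1901. The call did not hold when any 1 of the WT or HM mice, HT replicate 1 or HT replicate 2 was left out (adjusted p from 0.0556 to 0.216, slope 0.20 to 0.22). Nor did it hold with the block for the start of the animal number (slope 0.24, adjusted p = 0.125), a mean of at least 50 (0.0561), the line in normalized counts (0.054), a variance prior without a mean trend (0.359) or length and GC correction (0.0593). The other 5 TFIIIC subunit genes had unadjusted slope p of 0.115 or more, and Gtf3c5 instead lay above the line in HT mice (0.13, SE 0.052, unadjusted p = 0.0211).

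Dlx1, a homeobox transcription factor of forebrain GABAergic neurons, was the gene nearest to the threshold. Its values were 1121, 1074, 1057 and 1057 normalized counts in WT, 1193, 1223, 1129 and 1155 in HT and 1334, 1276, 1332 and 1502 in HM mice, and every mouse with fewer alleles exceeded every mouse with more. Its slope was 0.17 (SE 0.027, limma, BH-adjusted p = 0.0511), with HT at a place of 0.37. Such a full separation upwards, chosen for naming after the values were seen, was found in 3 of the 18006 genes (0.0167%), namely Dlx1, Atp1b2 and Wasf3. Atp1b2, the beta-2 subunit of the sodium-potassium pump, which also acts as an adhesion molecule on astrocytes, had 14848, 14744, 15059 and 14914 normalized counts in WT, 15253, 15447, 15905 and 15451 in HT and 16194, 16228, 16035 and 16364 in HM mice. Its steps were small and even (slope 0.061, SE 0.014, BH-adjusted p = 0.384, place 0.48). Wasf3, a regulator of actin branching, went from 4480.0 to 4925 in WT through 4959 to 5016 in HT to 5144 to 5374 in HM mice (slope 0.069, SE 0.018, BH-adjusted p = 0.397, place 0.52).

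The other genes among the 10 with the smallest slope p upwards did not pass the adjusted threshold, and their HT mice held different places. Pcbp3, a poly(C)-binding RNA-binding protein, had means of 1304, 1380.2 and 1525 normalized counts for 2, 1 and 0 alleles (slope 0.11, place 0.37). Pcdh10, a protocadherin, had 5599.5, 6073 and 6281 (slope 0.082, place 0.71). For Gng4, a G protein gamma subunit, HT mice (1543 to 1712) stayed within the WT range (1488 to 1766) and HM mice (1859 to 2218) lay above both, with a place of 0.14. Tshz1, a zinc finger transcription factor of olfactory bulb interneurons, had a place of 0.24. For Tenm3, a teneurin adhesion protein, HT mice (3333 to 3654) had already reached the HM range (3330.0 to 3745) from 2769 to 3276 in WT mice, a place of 0.90. Gm37240 was present at low levels, 0 to 4.27 normalized counts in WT, 2.47 to 15.6 in HT and 9.94 to 62.8 in HM mice. Eomes and Cdhr1 complete the 10 and are described with the olfactory bulb genes.

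Downwards, full separation was again found in 3 genes (0.0167%), Slc6a20a, Gm47173 and C1qtnf12. C1qtnf12, a secreted protein of the C1q and TNF family, had 363, 335, 333 and 352 normalized counts in WT, 324, 332, 319 and 303 in HT and 265, 301, 290.0 and 261 in HM mice (slope -0.15, SE 0.036, BH-adjusted p = 0.384). Its lowest WT mouse lay only just above its highest HT mouse. Outside the Slc6a20a locus the smallest slope p downwards was that of Acad10, a member of the acyl-CoA dehydrogenase family. It had 182, 211, 182 and 199 normalized counts in WT, 147, 168, 168 and 173 in HT and 156, 150.2, 116 and 125 in HM mice (slope -0.25, SE 0.056, BH-adjusted p = 0.384). HT mice lay midway, with a place of 0.47, and overlapped HM mice. Rpl9 and Rpl13a, both proteins of the large ribosomal subunit, had HT places of 0.71 and 0.68 and slopes of -0.13 and -0.12 (BH-adjusted p = 0.384 for each). Ribosomal protein genes have many processed copies in the genome that can share reads, so single members are uncertain. Stx8, a SNARE protein of endosomes, had 566 to 659.5 in WT, 454 to 509.8 in HT and 476 to 506 in HM mice, so its whole difference was already present with 1 allele lost (place 1.07). Sub1, a coactivator of transcription, and Cox7a2, a subunit of cytochrome c oxidase, had places of 0.86 and 0.81. Tubgcp6, of the gamma-tubulin complex, had a place of 0.64, with HT replicate 4 at 2106 normalized counts against 1861 to 1879 in the other HT mice.

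**Figure D3:**
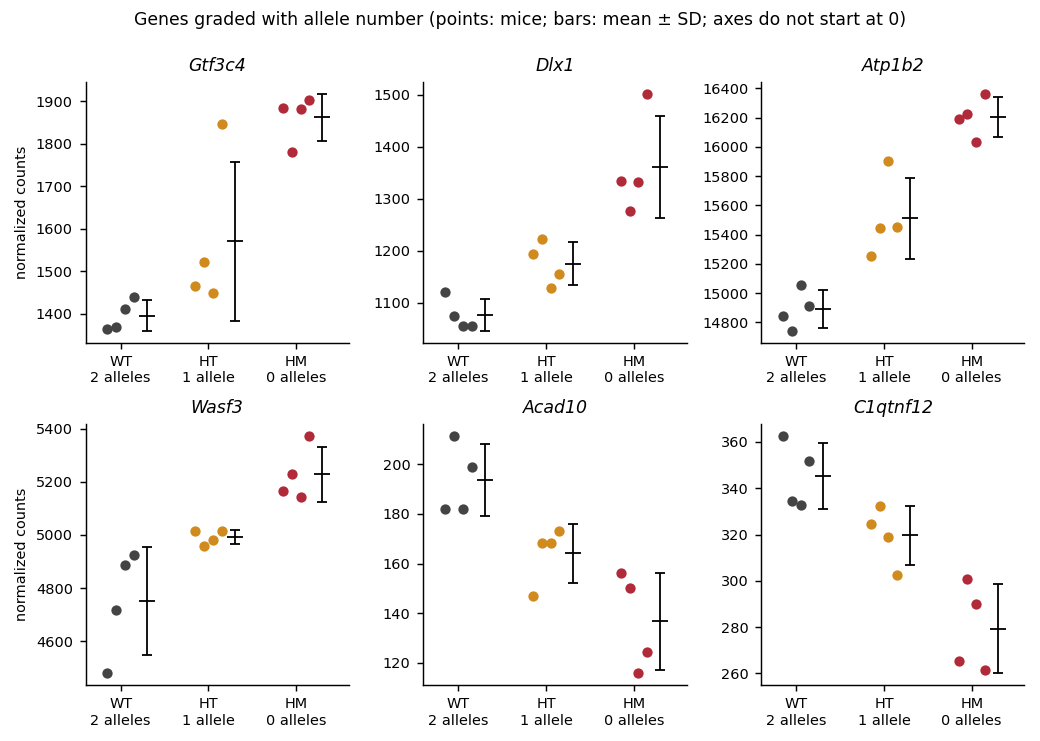
Normalized counts (vertical axis, not starting at 0) in each mouse (points) by genotype and number of intact alleles, with mean and SD of 4 mice, for Gtf3c4, Dlx1, Atp1b2 and Wasf3, whose means step up, and Acad10 and C1qtnf12, whose means step down. Dlx1, Atp1b2, Wasf3 and C1qtnf12 show no overlap between genotypes, while HT replicate 4 of Gtf3c4 and HT replicate 1 of Acad10 reach the HM range.

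A second pattern, an HM difference without an HT step towards it, was held by genes of the olfactory bulb. Eomes is a transcription factor of the bulb's projection neurons, the mitral and tufted cells. It had 40.1, 28.2, 20.2 and 15.8 normalized counts in WT, 32.8, 17.5, 20.3 and 20.7 in HT and 83.5, 44.1, 59.5 and 86.5 in HM mice. Every HM mouse lay above all others, and HT mice lay within the WT range. Its slope was 0.70 (SE 0.15, BH-adjusted p = 0.384) and its departure was -0.84 (SE 0.25, unadjusted p = 0.00466). Cdhr1, a cadherin of mitral cells, had 369.5, 369, 272 and 288 normalized counts in WT, 276, 276, 342 and 258 in HT and 557, 391, 449 and 636 in HM mice. HM mice again lay above all others, with a departure of -0.48 (SE 0.12, unadjusted p = 0.00135).

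Omp, the marker of olfactory sensory neurons, whose axons enter the bulb, had 56.4, 43.4, 16.6 and 34.2 normalized counts in WT, 16.9, 10.2, 17.0 and 13.9 in HT and 87.5, 26.2, 57.6 and 89.2 in HM mice. HT mice were lowest and overlapped WT mice by WT replicate 3, HM replicate 2 lay among the WT mice, and the departure was -1.60 (SE 0.33, BH-adjusted p = 0.715). Of the 14 olfactory bulb markers listed, all 14 were tested and all 14 had a positive slope, 8 of them with an unadjusted p under 0.05, against 4.29% of all genes in that direction. The median slope was 0.25, against -1e-04 over all genes. The median departure was -0.32, 12 of the 14 lay below the line and 7 did so with an unadjusted p under 0.05, against 2.33% of all genes, and WT mice had the middle mean in 10. No marker passed an adjusted threshold. The mean level of the list, centred per gene on the log2 scale, was 0.24, -0.058, -0.34 and -0.26 in WT, -0.10, -0.49, -0.25 and -0.38 in HT and 0.57, 0.029, 0.38 and 0.67 in HM mice. HM replicate 2 lay below WT replicate 1, and the HT mice lay within or below the WT range. Without HM replicate 2 the slope counts were 10 and the departure counts 7, and with a block for the start of the animal number they were 6 and 7.

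**Figure D4:**
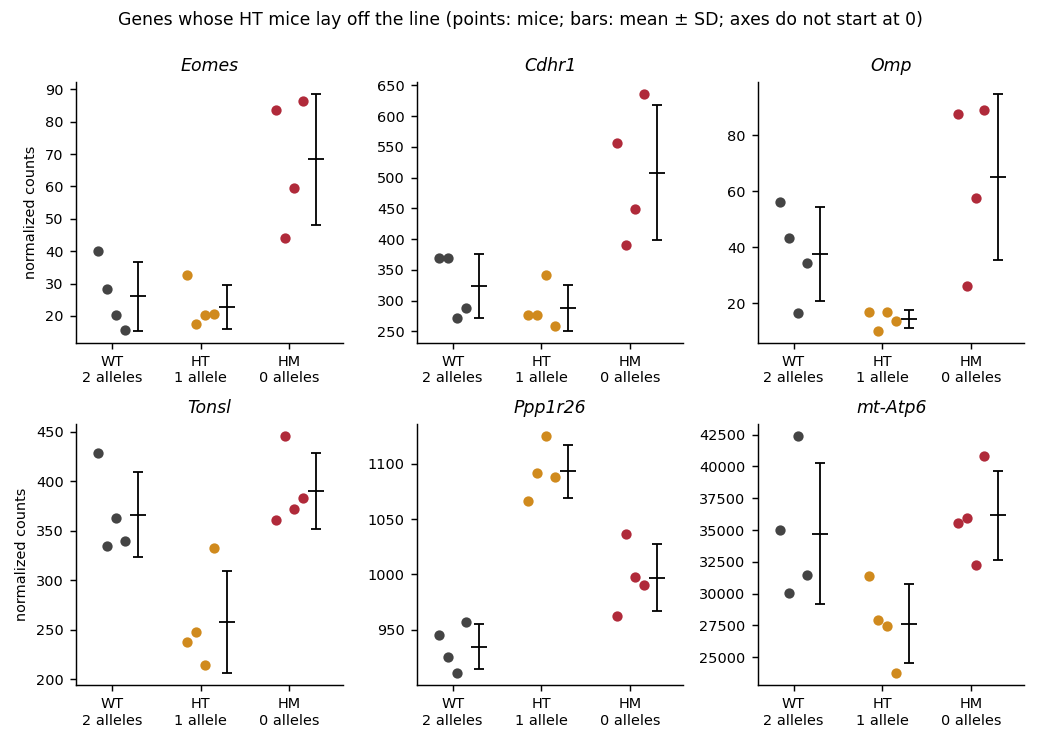
Normalized counts (vertical axis, not starting at 0) in each mouse (points) by genotype and number of intact alleles, with mean and SD of 4 mice, for 6 genes whose HT mice lay off the line. HM mice stand above the rest for Eomes and Cdhr1, HT mice are lowest on average for Omp, Tonsl and mt-Atp6, and the HT mice of Ppp1r26, at 1067 to 1125, lie above all other mice.

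Some genes had an HT level outside both other genotypes. Every HT mouse lay above all other mice in 30 genes (0.167%) and below all other mice in 30 genes (0.167%). An unadjusted departure p under 0.05 (limma) was reached by 4.04% of all genes tested, no more than the threshold of 0.05 gives by chance. The genes are therefore described singly, and whether their number exceeds chance was not tested. Ppp1r26, a regulatory subunit of protein phosphatase 1, had 945, 925, 911 and 957 normalized counts in WT, 1067, 1092, 1125 and 1088 in HT and 962, 1036, 998 and 991 in HM mice. HM mice lay between, above all WT mice, and the departure was 0.18 (SE 0.039, BH-adjusted p = 0.754). Klf10, a zinc finger transcription factor induced by TGF-beta, had 610.1 to 802 in HT mice against 527 to 571 in WT and 533 to 608 in HM mice (departure 0.26, SE 0.069, unadjusted p = 0.00201). Man1a, a mannosidase of the Golgi, had 1177 to 1329 in HT mice and almost equal WT and HM means of 1111 and 1108 (departure 0.15, SE 0.043). Reep6, which shapes the endoplasmic reticulum, Camsap1, which binds microtubule ends, Inpp1, an inositol phosphatase, Zfp592 and Gm44949 were the further genes with a small departure p above the line, with departures of 0.24, 0.14, 0.31, 0.27 and 0.58. Gm49450 was listed at 0 in all WT and HM mice and at 91.2, 55.0, 0 and 84.3 normalized counts in HT mice, so its values were not spread like those of other genes.

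Below the line, the smallest departure p belonged to Tonsl, a protein of replication-coupled DNA repair. It had 428, 335, 363 and 339 normalized counts in WT, 237, 247, 215 and 333 in HT and 360.2, 446, 371 and 383 in HM mice. All HT mice lay below all others, 3 of them by a wide margin, and the departure was -0.56 (SE 0.11, BH-adjusted p = 0.52). Without HT replicate 4 it passed the adjusted threshold, together with Gm13736 and Slc6a20a. Rab10os, a transcript opposite Rab10, had 1326 to 1588 in HT mice against 1682 to 1836 in WT and 1631 to 1881 in HM mice (departure -0.27, SE 0.053, BH-adjusted p = 0.52), and as an overlapping transcript in unstranded data it is uncertain. Ppp1r3e, which brings protein phosphatase 1 to glycogen, had 236, 224, 223 and 225 in HT mice, 264 to 317 in WT and 269.7 to 274 in HM mice (departure -0.30, SE 0.068, BH-adjusted p = 0.885). Smchd1, a chromatin protein of X inactivation, and Adm, the vasodilator peptide adrenomedullin, were likewise lowest in every HT mouse, with departures of -0.20 and -0.77. Scand1, Tmsb15b2 and Gm13736 had departures of -0.37, -0.82 and -2.98. Each of these genes had WT and HM means close to each other, with an unadjusted slope p of 0.309 or more.

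Among the 13 mitochondrially encoded genes, 11 lay below the line in HT mice, against 8834 of all 18006 genes, 2 of them with an unadjusted p under 0.05 (2.33% of all genes), and the median departure was -0.046. Without HT replicate 2 the count of 2 became 7 and the median -0.087, while the median was -0.026 without HT replicate 4 and -0.028 without HM replicate 3. With the block for the start of the animal number the count was 4 and the median -0.087. mt-Atp6, a subunit of ATP synthase, had 34976, 30019.6, 42400.5 and 31470.3 normalized counts in WT, 31368, 27924, 27461 and 23769.6 in HT and 35527, 35967, 32285 and 40792 in HM mice (departure -0.36, SE 0.085, unadjusted p = 6.99e-04). The highest HT mouse exceeded 1 WT mouse and lay below every HM mouse. mt-Co2 ranged from 8068 to 67388 in WT mice alone, and mt-Co3 from 20416 to 99916 in HM mice alone. Members of 1 transcription unit differed strongly between mice of a genotype, while mt-Co1 had means of 654674, 632533 and 634081. Nuclear copies of mitochondrial sequence can share these reads, so single members are uncertain.

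Of the other genes that carry glycine or proline across membranes, 17 were listed and tested, and the level of none followed allele number with an adjusted p under 0.05. An unadjusted slope p under 0.05 was found for 2 upwards (4.29% of all genes) and 1 downwards (3.36%), and the median slope was 0.032. The count upwards became 4 without HM replicate 4 and 1 without HM replicate 1 or 2, and that downwards 2 without WT replicate 1. The median slope became 0.020 without WT replicate 1, 0.018 without WT replicate 2 and 0.0505 without WT replicate 4. Slc38a5, a glutamine and glycine transporter of the system N family, had 77.5, 33.6, 36.9 and 41.4 normalized counts in WT, 46.0, 58.6, 56.1 and 48.0 in HT and 78.1, 87.4, 70.0 and 61.2 in HM mice (slope 0.35, SE 0.11, unadjusted p = 0.00602). WT replicate 1 lay within the HM range, apart from the other WT mice. Slc38a1, a neuronal glutamine transporter of system A, had a slope of 0.044 (SE 0.018), and Slc6a20b was the gene downwards. Slc6a9 (GLYT1), which clears glycine at excitatory synapses, had 1817 ± 122, 1854 ± 135 and 1897 ± 83.2 normalized counts for 2, 1 and 0 alleles (SD, n = 4). Its slope of 0.032 had an SE of 0.030, and the genotypes differed by less than the spread between mice. Slc6a7 (PROT), the brain's high-affinity proline transporter, had 2809.6 ± 155, 2801 ± 192 and 2809 ± 129, a slope of 0.0002 (SE 0.027). Slc6a17, a vesicular transporter of neutral amino acids, lay above the line in HT mice (0.087, SE 0.034, unadjusted p = 0.0217).

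Among 22 genes of glycine, serine and proline metabolism, Psph, the last enzyme of serine synthesis, was the single gene past an unadjusted slope p of 0.05 upwards (4.29% of all genes), with a slope of 0.095 (SE 0.044). The count became 0 without WT replicate 1, 2 or 3, HT replicate 2 or 4, or HM replicate 2 or 3. It was also 0 with the block for the start of the animal number. The slope of Psph ranged from 0.060 to 0.13 with 1 mouse left out. Shmt1, which interconverts serine and glycine in the cytosol, lay above the line in HT mice (0.46, SE 0.18, unadjusted p = 0.0238), with means of 77.3, 106 and 79.0 normalized counts. Prodh, the first enzyme of proline breakdown, had 1151 ± 97.4, 1126 ± 50.1 and 1059 ± 57.7 (slope -0.058, SE 0.031, unadjusted p = 0.0813). Of 16 tested NMDA and glycine receptor genes, 14 had a positive slope, and 3 of these had an unadjusted p under 0.05 (4.29% of all genes upwards). Grin2b, an NMDA receptor subunit, had 13507, 20338, 18978 and 16988 normalized counts in WT, 22347, 21427, 17281 and 20712 in HT and 20877, 21470.1, 20648 and 21016 in HM mice (slope 0.14, SE 0.049, unadjusted p = 0.0104), with WT replicate 1 below all other mice. Its slope ranged from 0.083 to 0.18 with 1 mouse left out. The count of 3 became 1 without WT replicate 1, HT replicate 1 or HM replicate 1, 2 or 4, or with the block for the start of the animal number or length and GC correction, and 5 without HM replicate 3. Grin1, the obligatory subunit, had a slope of 0.022 (SE 0.022). Of 25 AMPA and kainate receptor and auxiliary genes, 6 had an unadjusted slope p under 0.05, all upwards (4.29% of all genes), among them Cacng8 (0.10, SE 0.024) and Cacng3 (0.070, SE 0.022), which encode auxiliary subunits of AMPA receptors.

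Synaptic adhesion genes were higher on average with fewer alleles, and their HT mice were mostly level with HM mice. Of 40 tested, 35 had a positive slope, 8 with an unadjusted p under 0.05 (all upwards, against 4.29% of all genes), and the median slope was 0.041. The HT mean lay above the line in 32, against 9172 of all 18006 genes, with a median departure of 0.040, and HM mice had the middle mean in 21. Nlgn3, a postsynaptic neuroligin, had 3709.6, 3945, 3899 and 3967 normalized counts in WT, 4271, 4386, 4574 and 4655 in HT and 4600.2, 4544, 4166 and 4300.3 in HM mice (slope 0.091, SE 0.021, BH-adjusted p = 0.384). All mutant mice lay above all WT mice, HT and HM mice overlapped, and the departure was 0.11 (SE 0.037, unadjusted p = 0.00677). Mdga1, which binds neuroligin-2, was graded instead, with 1199 to 1475 in WT, 1377 to 1670.4 in HT and 1583 to 1736 in HM mice (slope 0.15, place 0.55). The mean level of the list was -0.13, -0.003, -0.021 and -0.083 in WT, -0.012 to 0.054 in HT and 0.008 to 0.050 in HM mice, and WT replicate 2 alone overlapped the HT mice. Without WT replicate 2 the count of 8 became 17, and without WT replicate 1 it was 9 while the median slope became 0.027 and the median departure 0.024. The median departure was 0.020 without HT replicate 4 and 0.012 with the block for the start of the animal number, under which 16 of the 40 lay below the line.

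Axon guidance genes were also mostly higher with fewer alleles. Of 41 tested, 36 had a positive slope, 16 with an unadjusted p under 0.05 (4.29% of all genes), and none with such a p had a negative slope. The median slope was 0.056, and HT mice had the middle mean in 26 (63.4%, against 37.8% of all genes). Slit1, a secreted guidance ligand, had 3327, 3783, 3639 and 3533 normalized counts in WT, 3850.4, 3856, 3820.0 and 3866 in HT and 4092, 4135, 4121 and 3836 in HM mice. HT mice lay close together above all WT mice, and HM replicate 4 lay among them (slope 0.091, SE 0.021, BH-adjusted p = 0.384). Its receptors Robo1 and Robo2 had places of 0.68 and 1.06 with slopes of 0.13 and 0.076, and Sema5a, a semaphorin, one of 0.78 with 0.11. The mean level of the list was -0.12, -0.011, -0.035 and -0.053 in WT, 0.034, -0.003, -0.010 and 0.025 in HT and 0.038, 0.054, 0.030 and 0.053 in HM mice, with HT mice narrowly and HM mice clearly above all WT mice. Without WT replicate 1 the count of 16 became 10, and the median slope 0.041.

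Ribosomal protein genes had the opposite sign. Of 82 genes of the cytosolic ribosome, 77 had a negative slope, 25 with an unadjusted p under 0.05 and none upwards, against 3.36% downwards over all genes. The median slope was -0.050, and HT mice had the middle mean in 50. The median departure was -0.031, and it became 0.021 with the block for the start of the animal number and -0.005 without WT replicate 1. Beside Rpl9 and Rpl13a, Rpl17 went from 4776 to 5506 in WT through 4342 to 4656 in HT to 4285 to 4539.9 in HM mice (slope -0.091, SE 0.023, place 0.86). The mean level of the list was 0.19, -0.049, 0.032 and 0.061 in WT, 0.001, -0.038, 0.019 and -0.080 in HT and -0.020, -0.032, -0.034 and -0.050 in HM mice. WT replicate 1 was the highest of all mice and WT replicate 2 lay within the mutant range. Without WT replicate 1 the count of 25 became 10 and the median slope -0.025, and without WT replicate 2 the count became 50 and the median slope -0.069.

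Nuclear genes of the respiratory chain and of the mitochondrial ribosome had the same sign with smaller slopes. Of 76 respiratory chain subunit genes, 63 had a negative slope, 17 with an unadjusted p under 0.05 (3.36% of all genes) and none upwards (median slope -0.033). Ndufb9, of complex I, had a place of 0.51 with a slope of -0.095, and Cox8a, of complex IV, one of 0.97 with -0.079. The mean level of the list was 0.17, -0.024, -0.013 and 0.022 in WT, -0.054 to 0.027 in HT and -0.033 to -0.019 in HM mice. Without WT replicate 1 the count of 17 became 6, the median slope -0.012, and 33 of the 76 slopes were positive. Without HM replicate 1 the count was 10. Of 78 mitochondrial ribosomal protein genes, 62 had a negative slope, 7 with an unadjusted p under 0.05 (8.97%, against 3.36% of all genes). This count became 2 without WT replicate 1, 11 without WT replicate 2 and 4 without HT replicate 1 or 3. In the fits without WT replicate 1 the medians of these lists kept their sign.

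**Figure D5:**
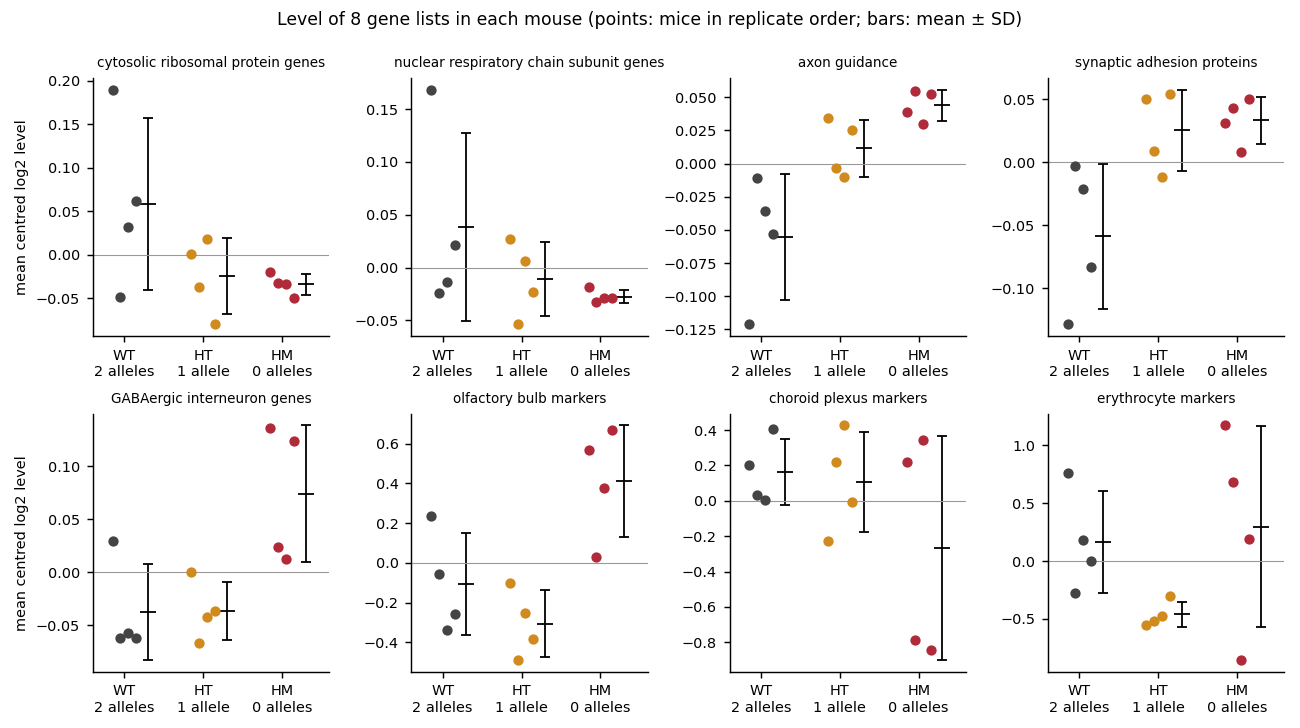
Mean level of 8 gene lists in each mouse (points, in replicate order), as the log2 level centred per gene (vertical axis, scales differ), by genotype and number of intact alleles, with mean and SD of 4 mice. WT replicate 1 is the highest mouse for ribosomal protein and respiratory chain genes and the lowest for axon guidance and synaptic adhesion genes, HM mice are high for olfactory bulb markers, and HM replicates 2 and 4 are low for choroid plexus markers at -0.78 and -0.84.

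GABAergic interneuron genes were higher in HM mice for some members. Of 20 tested, 8 had an unadjusted slope p under 0.05 upwards (4.29% of all genes) and 1 downwards (3.36%). Among the 8 were Dlx1, Gng4, Sp8 and Calb2, of which Sp8 and Calb2 are also on the olfactory bulb list. Sp8 lay below the line in HT mice (-0.54, SE 0.16, unadjusted p = 0.00365), and Dlx1 had a departure of -0.042 (unadjusted p = 0.374). Pvalb, the calcium-binding protein of fast-spiking interneurons, was the 1 gene downwards (-0.11, SE 0.039, unadjusted p = 0.0111). Gad1, which makes GABA, had a slope of 0.033 (SE 0.020, unadjusted p = 0.126). The mean level of the list in HM mice was 0.14, 0.024, 0.012 and 0.12, and the 2 highest were also the highest for olfactory bulb markers. Without HM replicate 1, or with the block for the start of the animal number, the count of 8 became 4. The part of the bulb genes in this list's values was not tested.

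Of 14 choroid plexus markers, 13 had a negative slope, 3 with an unadjusted p under 0.05 (3.36% of all genes), and the median slope was -0.23. The level of the list was 0.22, -0.78, 0.34 and -0.84 in HM mice, -0.23 to 0.43 in HT and 0.005 to 0.41 in WT mice. HM replicates 2 and 4 lay below all other mice, and HM replicates 1 and 3 lay within the WT range. The count of 3 became 1 without WT replicate 1 or 4 or HM replicate 2 or 4, 6 without HM replicate 1 and 8 without HM replicate 3. The median slope was -0.15 without HM replicate 2 and -0.12 without HM replicate 4. Ttr, the transthyretin that choroid plexus secretes, had 14281, 8995, 16267 and 9336 normalized counts in the HM mice. Among 7 tested erythrocyte genes of 10 listed, HT mice lay below the line for 6, 5 of them with an unadjusted p under 0.05 (2.33% of all genes). Hba-a1, an alpha globin, had 1389.7 to 1997 normalized counts in HT mice, 1678 to 4484 in WT and 1462 to 6440.2 in HM mice (departure -0.87, SE 0.30). The list's level ranged more widely in HM than in HT mice, with HM replicate 3 below all HT mice. Without HM replicate 3, 4 of the 7 had an unadjusted slope p under 0.05 upwards, against 0 with all mice. With the block for the start of the animal number, 0 of the 7 erythrocyte genes kept an unadjusted departure p under 0.05.

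All 12 striatum markers lay above the line in HT mice, against 9172 of all 18006 genes, 2 with an unadjusted p under 0.05 (1.72% of all genes), with a median departure of 0.065. The count of 2 became 4 without HT replicate 4 and 1 without WT replicate 3, HT replicate 2 or 3, or HM replicate 2 or 3. The median was 0.098 without HT replicate 1, 0.048 without HT replicate 2 and 0.046 without HT replicate 3. Adcy5, the adenylyl cyclase of striatal neurons, had 12282, 12783, 12566 and 12407 normalized counts in HT mice against 11165 to 11999 in WT and 11526 to 12262 in HM mice (departure 0.089, SE 0.029, unadjusted p = 0.00704), and every HT mouse lay above all others. Of 12 microglia markers, 11 had a negative slope, 3 with an unadjusted p under 0.05 (3.36% of all genes), led by Tmem119 (-0.092, SE 0.030), where the count of 3 became 1 without WT replicate 4 or HM replicate 2. Without WT replicate 4, or with the block for the start of the animal number, 5 of the 12 slopes were positive. Of 12 endothelial and pericyte markers, 11 had a positive slope, 4 with an unadjusted p under 0.05 (4.29% of all genes), led by Rgs5, a pericyte gene (0.078, SE 0.025), where the count of 4 became 2 without WT replicate 1 or 2 or HM replicate 1, and 7 slopes were positive without WT replicate 2. Neuron markers had a positive slope in 11 of 12 (median 0.025) and astrocyte markers in 10 of 12 (median 0.023). With the block for the start of the animal number, 8 of 12 neuron markers did, and without WT replicate 2, 8 of 12 astrocyte markers. Slopes with an unadjusted p under 0.05, which 7.65% of all genes had, were found in 2 of 12 neuron, 2 of 12 astrocyte, 0 of 12 oligodendrocyte, 1 of 14 meningeal fibroblast, 1 of 12 tested cerebellum and 1 of 10 tested hypothalamus markers, and in 0 of 3 tested pituitary markers. For neuronal activity genes the number was 2 of 20, for circadian clock genes 2 of 20, for glucocorticoid-responsive genes 1 of 20 and for the PAF1 complex 1 of 6, namely Cdc73. Most of these small counts moved with single mice, for neuronal activity genes to 0 without WT replicate 1 or HM replicate 1 or 2, 1 without WT replicate 2 and 4 without HM replicate 3 or 4, and at most to 5, for glucocorticoid-responsive genes without HM replicate 4. Of the 20 glucocorticoid-responsive genes, 17 lay below the line in HT mice, 1 of them with an unadjusted p under 0.05 (2.33% of all genes), and the median departure was -0.11. That count of 1 became 9 without HM replicate 1, 4 without HT replicate 2, 3 without WT replicate 4, 2 without HM replicate 2 and 0 without WT replicate 2 or 3, HT replicate 3 or HM replicate 3. The median was -0.074 without HM replicate 3 or 4. With the block for the start of the animal number the count was 12 and the median -0.30. Cdc73 had 1262, 1289, 1369.9 and 1458 normalized counts in WT, 1999, 1771, 1481 and 2165 in HT and 1523, 2107, 1689 and 1993 in HM mice. All mutant mice lay above all WT mice, HT and HM mice overlapped throughout, and its place was 1.04 (slope 0.22, SE 0.054, BH-adjusted p = 0.386).

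The genes listed by the study for a difference of HT or HM mice from WT mice were placed on the same line, as a description, since they were chosen on these mice.

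HT mice had the middle mean in 21 of 27 genes from the list of higher HM genes, with a median place of 0.55, and in 6 of 6 genes from the list of lower HM genes, with a median place of 0.69. Sez6, a transmembrane protein of dendrites, had 7768 to 7886 normalized counts in WT, 8207 to 8814 in HT and 8437 to 8761 in HM mice, a place of 0.98, while Frmd7 had 26.5 to 37.5 in HT and 41.9 to 120.3 in HM mice, a place of 0.076. In the lists chosen from HT mice, HM mice had the middle mean in 6 of 7 higher genes and in 5 of 6 lower genes, so that HT lay beyond HM, with median places of 1.47 and 1.80. Snrnp70, a splicing factor, had 12712 to 13669 in HT mice, below all others, with HM mice at 13804 to 14521 and WT mice at 14379 to 15452 (departure -0.12, SE 0.030). Genes picked for an extreme mean in 1 genotype lie further out in that genotype by their choice.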

How the data were processed

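Whole-brain poly-A RNA of 12 mice was sequenced as unstranded paired reads. Per the study's methods, the authors quantified transcripts with Salmon 1.1.0 against GRCm38, summed them to genes and normalized them with DESeq2 1.30.1. The deposited signal is thus a normalized count per gene, which does not hold whole reads, so limma was used in place of a count test. R 4.1.1 is named in the submitters' notes. Of 19775 identifiers, 19758 were found in GENCODE M21 and 17 were not.

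Values were taken as log2(normalized count + 1) where the mean over all mice was 10 or more (18006 genes). One model of 3 genotype means was fitted with limma 3.58.1 in R 4.3.3, with a mean-variance trend in the prior and Benjamini-Hochberg adjustment at 0.05. All tests were two-sided. Fold changes of low genes are understated on this scale. The fit was tested on simulated data first.

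The question, members and gene lists were chosen with earlier results of these data known. Named were Slc6a20a and Slc6a20b, genes with an adjusted p under 0.05, the 10 genes with the smallest slope p and departure p in each direction, the members of each list with the smallest p, and the genes the study listed. The separated genes, Slc6a9, Slc6a7, Prodh, Grin1, Gad1, Ttr, mt-Co1 and others outside this rule were chosen for their function or after their values were seen. Alternatives covered the pseudocount, filters, scaling, length and GC content, the variance prior, blocks and each mouse left out. Some genes are not reported here.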

Additional observations from a re-analysis of the deposited data

Results flagged for a closer look

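Among 120 groups of 4 mice in 40 named genes, 9 values stood apart from the other mice of their genotype by Dixon's criterion, which chance alone meets in about 1 in 20 groups. HM replicate 2 had 1780.2 normalized counts of Gtf3c4, the lowest of the HM mice. HT replicate 3 was listed at 0 for Gm49450. Reep6 was at 325 in HT replicate 4 and at 342 in HM replicate 2. HT replicate 1 had 147 normalized counts of Acad10, and HT replicate 4 had 2106 of Tubgcp6. Scand1 was at 361 in WT replicate 2, Gm13736 at 22.7 in HT replicate 4 and Adm at 70.9 in WT replicate 1.

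The change of Slc6a20a with the first allele lost differed from that with the second on the log2 scale. The departure of 0.72 was past the adjusted threshold in the limma fit (Benjamini-Hochberg adjusted p = 0.0298), and it depended on the scale, as given above.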

How the results depend on the processing

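The count of genes with a called slope was 3. It became 1 with a mean of at least 50 (chosen after seeing the data), a filter that left Gm47173 untested. It was also 1 with a variance prior without a mean trend, length and GC correction with replicate block (also added later) or a block for the start of the animal number. With 1 mouse left out it ranged from 1 to 3. Dlx1 was called as well with at least 10 in every mouse, a straight line only, a robust prior or quantile normalization.

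The count of called departures, 1, ranged from 0 to 3 with 1 mouse left out. It became 0 in limma fits with the line in normalized counts (722 genes at an unadjusted p under 0.05), without a mean trend (751), with length and GC correction (756, or 725 with the replicate block), with the replicate block alone (687) and with the animal number block (904). The departure of Slc6a20a was -0.074 with the line in normalized counts. It was 0.72 without a mean trend (adjusted p = 0.327), 0.71 with length and GC correction (0.0521, or 0.115 with the replicate block), 0.72 with the replicate block (0.074) and 0.76 with the animal number block (0.235). It ranged from 0.68 to 0.77 with 1 mouse left out. The cause of these shifts was not tested.

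Replicate numbers did not pair the mice. Same-numbered mice correlated at -0.0658 to 0.0869, and 6 of 24 correlated best with their own number. With the replicate block 3 slopes were called.

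Slopes of some named genes changed sign. With the animal number block they were 0.0059 for Paf1, 0.012 for Gjb6, -0.016 for Opalin, -0.14 for Hba-a1, -0.25 for Isg20, -0.21 for Hba-a2, 0.017 for Avp, 0.021 for mt-Nd6 and 0.059 for mt-Nd5, and the departure of Calb1 was -0.0038. Length and GC correction gave 0.0032 for Paf1, with or without the replicate block. The line in normalized counts gave 0.019 for Alas2, and quantile normalization -0.0029 for Adcy5. With 1 mouse left out, 7 values in 6 genes changed sign, and the ranges were -0.0201 to 0.012 for Paf1, -0.0012 to 0.35 for Isg20, -0.037 to 0.34 for Hba-a2, -0.29 to 0.15 for Alas2, -0.0299 to 0.24 for Pomc and -0.056 to 0.18 for Ccr9. At 4 mice a genotype and with levels reaching down to a mean of 10, small differences of low genes could not be detected.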
